A study of Mus musculus with 48 samples.

Results

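Glutamine synthetase, ammonia uptake and the enzymes and transporters around glutamate were represented by 8 genes, chosen by their symbols with earlier results of these data known: *Rhbg*, *Glul*, *Oat*, *Slc1a2*, *Slc1a4*, *Gls2*, *Slc38a3* and *Glud1*. They were 8 of the 16269 genes with a transcript counted in ribosome-protected fragments (RPFs), the stretches of mRNA that a translating ribosome shields from nuclease, and all 8 had counts in every library of both kinds. The liver splits ammonia removal between the ends of its lobule. Periportal hepatocytes release ammonia from glutamine with glutaminase and turn it into urea, and perivenous hepatocytes, which lie around the central vein where WNT signalling is highest, capture what has escaped and fix it onto glutamate with glutamine synthetase. *Glul* is a textbook target of β-catenin, the effector of WNT signalling.

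The study asked how activated β-catenin and MYC, alone and combined, change translation in the liver. RPFs and the cytoplasmic RNA of the same lysate were sequenced from 24 male mice aged 2 to 4 months and weighing at least 20 g, with 3 mice for each of 4 genotypes at 4 and 10 days after induction, and each mouse was 1 replicate. WT mice were wild-type, B mice carried Ctnnb1ex3/+, an allele whose exon 3 is lost on recombination so that a stabilised β-catenin is made, M mice carried R26-LSL-MYC, a MYC transgene behind a floxed stop, and BM mice carried both. All mice, WT included, were given AAV8.TBG.PI.Cre.rBG. The labels state 2e+11 genome copies, per mouse in one label and per ml in another, and so leave the dose per mouse uncertain. The paper's methods give 2e+11 for this virus as a concentration per ml. This virus expresses Cre from a hepatocyte promoter, so that recombination is limited to hepatocytes. The mice were on a mixed C57BL/6 background. Whole liver was measured, so fewer cells of a type and less RNA per cell cannot be told apart.

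In the GRCm39 annotation of GENCODE vM39, the genes on the plus strand were *Glul* at chr1:153775690-153785469, *Slc1a2* at chr2:102488574-102621129, *Gls2* at chr10:128030316-128045873 and *Glud1* at chr14:34032583-34067642. Those on the minus strand were *Oat* at chr7:132159153-132191517, *Rhbg* at chr3:88150181-88162043, *Slc1a4* at chr11:20252180-20282774 and *Slc38a3* at chr9:107527815-107547018.

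The 100 bases before the annotated 5′ end of the transcript that carried the RPF counts are given for the 5 genes that rose together in B and BM mice and for *Gls2*, which fell, as 1 run each, 5′ to 3′ on the gene's strand (GRCm39). Capitals mark GC boxes, the letters GGGCGG or CCGCCC.
Rhbg, chr3:88162017-88162116, minus strand: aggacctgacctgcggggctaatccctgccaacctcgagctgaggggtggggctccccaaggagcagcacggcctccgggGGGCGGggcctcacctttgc
Glul, chr1:153775590-153775689, plus strand: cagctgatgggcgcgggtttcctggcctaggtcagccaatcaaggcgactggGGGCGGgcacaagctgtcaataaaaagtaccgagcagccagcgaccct
Oat, chr7:132178128-132178227, minus strand: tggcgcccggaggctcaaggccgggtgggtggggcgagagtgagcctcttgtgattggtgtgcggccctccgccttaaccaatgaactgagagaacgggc
Slc1a2, chr2:102488474-102488573, plus strand: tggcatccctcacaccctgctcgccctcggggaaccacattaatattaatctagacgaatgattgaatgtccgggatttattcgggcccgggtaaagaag
Slc1a4, chr11:20282775-20282874, minus strand: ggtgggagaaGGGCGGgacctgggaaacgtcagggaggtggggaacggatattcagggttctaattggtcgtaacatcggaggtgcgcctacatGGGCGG
Gls2, chr10:128030216-128030315, plus strand: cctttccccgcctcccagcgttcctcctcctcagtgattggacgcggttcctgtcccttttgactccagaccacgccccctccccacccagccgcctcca
Over a window from 250 bases before to 50 after the 5′ end, 4 short motifs were searched. The TCF/LEF core and the GC box were searched on both strands, and the E-box reads the same on both. The TATA letters were searched on the gene's strand only. The TCF/LEF core CTTTGA or TCAAAG was in 14.6% of the 16249 promoters read in the same way, the E-box CACGTG in 8.72%, the TATA letters TATAAA in 6.65% and the GC box in 49.6%. Of the 8 genes, 0 had the TCF/LEF core, 0 the E-box and 0 the TATA letters in this window, and 5 had a GC box (*Rhbg*, *Glul*, *Oat*, *Slc1a4* and *Glud1*). In *Oat* a GC box lies across the 5′ end, and only its opening letters, not in capitals, are among the bases shown. Another lies just after the 5′ end, outside them. The letters describe these windows only.

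Library totals ranged from 9742197 to 14380713 RPF counts and from 3254141 to 6540116 RNA counts, and values after ± are standard errors for changes and SD for levels and shares. As a check of the labels, 11 of 12 β-catenin targets rose in RPFs in B mice at day 4 and 12 of 12 in BM mice, with 11 and 7 of 12 at day 10, and in M mice 0 of the 10 tested rose and 4 fell at day 4, and 1 rose and 2 fell at day 10. In RPFs 12.5% of all genes were called in B mice at day 4 and 25.2% at day 10. These shares were 33.3% and 19.4% in M mice and 50.9% and 46.8% in BM mice. *Axin2*, a WNT feedback scaffold, rose by 2.77 ± 0.187 (log2, SE) in B mice and by 3.06 ± 0.146 in BM mice at day 4. *Sp5*, a transcription factor of the same feedback, rose by 2.43 ± 0.550 and 2.72 ± 0.507, and the R-spondin receptor *Lgr5* by 2.15 ± 0.159 and 2.32 ± 0.102. The summed RNA of 9 hepatocyte markers was 132000 to 138000 CPM (counts scaled to library size) in the 6 WT mice, 101000 to 124000 in B mice at day 4 and 64000 to 66300 at day 10, 81900 to 102000 and 66300 to 79400 in M mice, and 59700 to 71500 and 48300 to 51300 in BM mice. Of these 9 markers, 2 and 6 fell in B mice, 6 and 7 in M mice and 8 and 7 in BM mice at day 4 and day 10, and 1 rose in BM mice at day 10. In RNA 8.14% of all genes were called in B mice at day 4 and 15.6% at day 10. The shares were 23.7% and 15.7% in M mice and 41.9% and 45.7% in BM mice. Summed RNA of the other marker lists ranged over the groups from 144 to 619 CPM for 10 Kupffer cell genes, from 369 to 748 for 9 endothelial genes, from 244 to 623 for 10 stellate cell genes, from 80.6 to 185 for 7 cholangiocyte genes and from 225 to 958 for 10 blood cell genes. In BM mice at day 4, RNA fell for 10 of 10 Kupffer cell markers, 8 of 9 endothelial markers, 6 of 9 tested stellate cell markers, 3 of 5 cholangiocyte markers and 7 of 7 blood cell markers, and 0 rose. At day 10 in BM mice, 3 Kupffer cell markers rose and 1 fell, while 7 endothelial and 6 stellate cell markers fell and 1 of each rose. In RPFs of these mice, 4 Kupffer cell markers rose and 0 fell, and 3 of 9 endothelial markers fell and 1 rose. Of the stellate cell markers 6 of 9 fell and 1 rose in RPFs, and of the blood cell markers 2 rose and 1 fell. In B mice, RNA fell for 5 of 10 Kupffer cell markers at day 4, and for 4 of 9 endothelial and 5 of 9 stellate cell markers at day 10. At day 4 it also fell for 2 endothelial, 1 stellate cell, 1 cholangiocyte and 1 blood cell marker. At day 10, 1 Kupffer cell marker rose and 2 fell. Of the blood cell markers in B mice at day 10, 1 rose and 1 fell of 7 tested in RNA, and 4 rose and 1 fell of 9 in RPFs. In M mice, RNA fell for 4 of 9 endothelial and 6 of 7 blood cell markers at day 4, and for 5 of 9 endothelial, 5 of 10 stellate and 5 of 6 blood cell markers at day 10. At day 4, 1 Kupffer cell marker rose and 1 fell in M mice, and 2 stellate cell markers and 1 cholangiocyte marker fell. *Tspan8* was listed at 0 in all WT mice at day 10, *Cd79a* in all WT mice at day 4 and *Cd3e* in all M mice at day 10. The part of these shifts in the changes below was not tested.

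Levels are given as CPM after TMM scaling of library sizes, a change is the log2 ratio fitted by edgeR's quasi-likelihood test, and a gene was called at an adjusted p below 0.1 over all genes tested. In RPFs, 5 of the 8 genes rose and 0 fell in B mice at day 4, where 12.5% of all tested genes were called, and 5 rose and 1 fell at day 10 (25.2% called). In BM mice 5 rose and 2 fell at both days, where 50.9% and 46.8% of all genes were called. The same 5 genes rose in these 4 comparisons, which share their WT mice within a day: *Rhbg*, *Glul*, *Oat*, *Slc1a2* and *Slc1a4*. In M mice 1 rose and 1 fell at both days, against 33.3% of all genes called at day 4 and 19.4% at day 10. The median change of the 8 genes was 1.42 (log2) in B and 1.81 in BM mice at day 4 and 2.54 and 1.62 at day 10, and −0.17 and −0.03 in M mice, while the median over all genes lay between −0.01 and 0.03 in these 6 comparisons.

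RNA showed the same layout. In B mice 6 genes rose at day 4, the same 5 and *Glud1*, where 8.14% of all genes were called, and 5 rose and 1 fell at day 10 (15.6%). In BM mice 6 rose and 2 fell at day 4 (41.9%), and 4 rose and 2 fell at day 10 (45.7%), where *Slc1a4* missed the threshold (adjusted p = 0.11, but 0.048 without a filter, 0.081 with the replicate block and 0.014 with all 24 mice in 1 fit, and 0.74 with a change of 0.10 without BM mouse 1). In M mice 1 rose and 2 fell at day 4 (23.7%) and 1 rose at day 10 (15.7%). Together the 8 genes took 0.331% ± 0.002 (SD, n = 3) of all RPF counts in WT mice at day 4 and 0.376% ± 0.0343 at day 10. In B mice the share was 0.907% ± 0.169 and 1.38% ± 0.285, and in BM mice 0.93% ± 0.0255 and 1.54% ± 0.0346. M mice, at 0.354% ± 0.00493 and 0.368% ± 0.00709, lay close to WT.

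**Figure D1:**
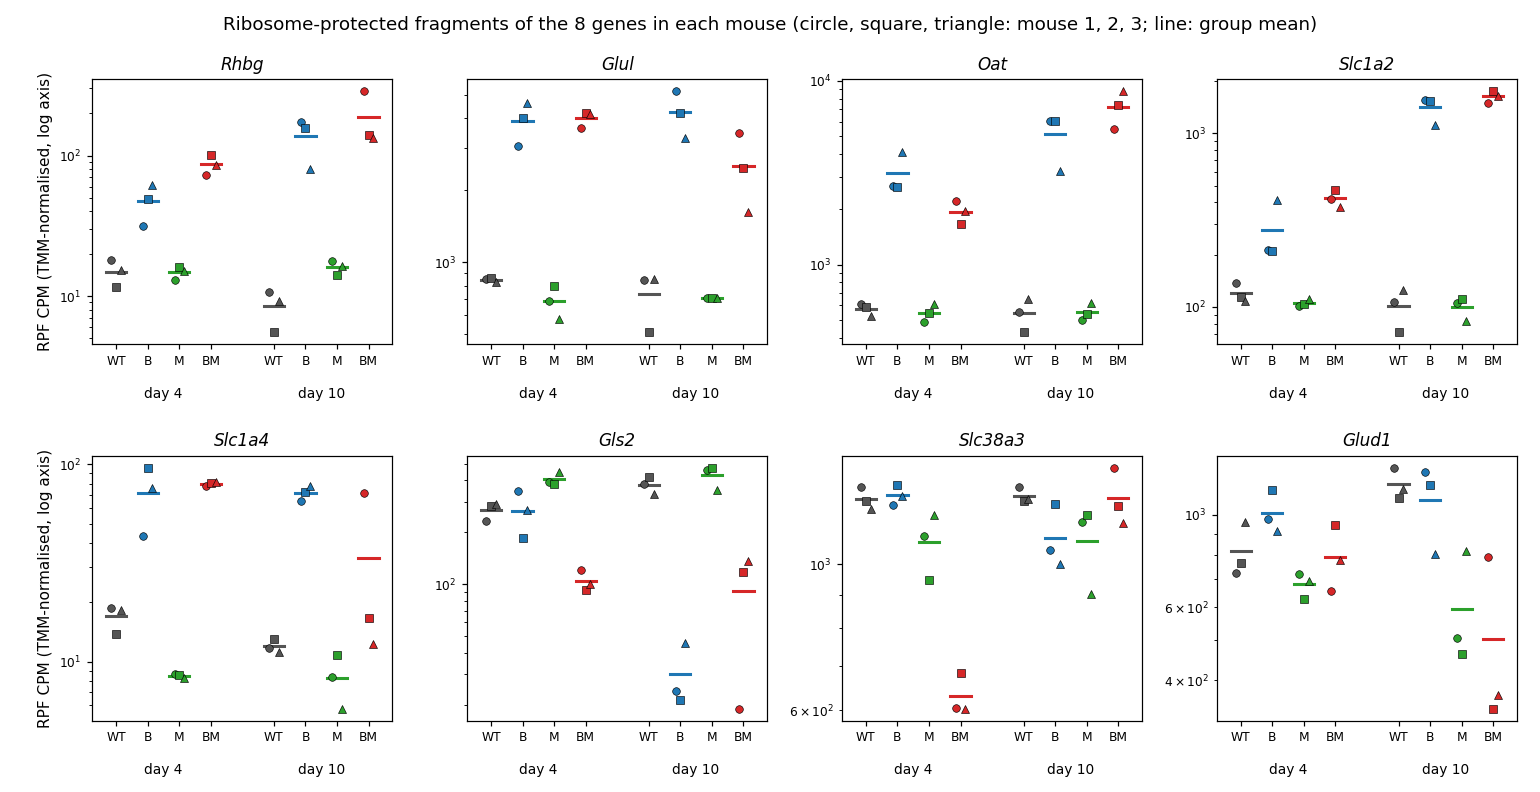
RPF level of each gene (CPM after TMM scaling, log axis) in each of the 24 mice by genotype and day. Points are mice and lines are group means, and for *Rhbg*, *Glul*, *Oat* and *Slc1a2* every B and BM mouse lies above every WT and M mouse of its day.

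Levels can be set between genes only per length, and in TPM, a level scaled to transcript length and library size, the order of the RNAs changed with genotype. In WT mice *Glud1* was highest at both days, with 434.3 ± 14.3 (SD, n = 3) at day 4 and 631 ± 58.7 at day 10, followed by *Slc38a3* with 318 ± 26.2 and 503 ± 58.5, *Glul* with 289 ± 23.7 and 361 ± 73.9 and *Oat* with 200.4 ± 15.8 and 252 ± 43.2. At day 4 the ranges of *Slc38a3* and *Glul* in WT mice met (298 to 348 and 264 to 311). *Gls2*, *Slc1a2*, *Slc1a4* and *Rhbg* followed, the last at 3.01 ± 0.637 and 2.30 ± 1.35. In BM mice at day 10 *Oat* was first with 5747 ± 579 TPM, *Glul* second with 2492 ± 1247 and *Slc1a2* next with 1377 ± 38.2, all above *Slc38a3* (707 ± 86.0) and *Glud1* (669 ± 49.0), whose ranges overlapped. M mice kept the WT order at the top, with *Glud1*, *Slc38a3*, *Glul* and *Oat* in places 1 to 4 at both days.

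*Rhbg* encodes an ammonium transporter of the Rh family on the basolateral membrane of perivenous hepatocytes, and by mean TPM it was the lowest of the 8 genes in WT liver, where its range overlapped with that of *Slc1a4* at both days. Its RPFs in WT mice were 17.9, 11.5 and 15.4 CPM at day 4 and 10.7, 5.52 and 9.25 at day 10, with as few as 54 RPF counts and 5 RNA counts in a library. B mice had 31.5, 48.8 and 62.0 at day 4 and 173, 158 and 80.8 at day 10, and BM mice had 72.9, 100.3 and 86.1 and then 287, 140.1 and 134. Every B and BM mouse was above every WT mouse of its day. The change in RPFs was 1.64 ± 0.229 (log2, SE; adjusted p = 0.0014, edgeR) in B and 2.54 ± 0.163 (6.9e-07) in BM mice at day 4, and 3.99 ± 0.324 (0.00016) and 4.44 ± 0.398 (0.00034) at day 10. It was also the 1 gene that rose in M mice at day 10, by 0.91 ± 0.222 in RPFs (0.035) and 1.24 ± 0.416 in RNA (0.087), from levels of 17.6, 14.2 and 16.2 CPM in M mice. Those M values lay above the 3 WT mice of day 10 and inside the day 4 WT range, and without M mouse 1 the RPF change was 0.84 with an adjusted p of 0.10, above the threshold. The RNA call was lost without WT mouse 2 or 3 or M mouse 1 or 3 (0.13 to 0.26).

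*Glul*, glutamine synthetase, joins ammonia to glutamate. WT mice had 849.8, 862 and 825 RPF CPM at day 4 and 842, 511 and 851 at day 10. In B mice the level was 3060, 3995 and 4648 at day 4 and 5185, 4198 and 3310 at day 10. BM mice had 3640, 4206 and 4160 at day 4, but 3479, 2487 and 1629 at day 10, so that the lowest BM mouse was still above the highest WT mouse. The RPF change was 2.19 ± 0.137 (adjusted p = 3e-05, edgeR) in B and 2.27 ± 0.0959 (7.2e-08) in BM mice at day 4, and 2.51 ± 0.237 (0.00029) and 1.77 ± 0.328 (0.0057) at day 10. M mice had 688, 799 and 578 CPM at day 4, all below WT, with a change of −0.26 ± 0.108 in RPFs (0.10) and −0.37 ± 0.132 in RNA (0.074). The RPF change was called by DESeq2 (0.068), with its size factors (0.075), without a filter (0.099), with the replicate block (0.065) and without M mouse 2 (0.013). The RNA call was lost without WT mouse 1 or 3 or M mouse 1 or 3 (0.12 to 0.26) and with all 24 mice in 1 fit (0.44). At day 10 the 3 M mice had 713, 712 and 713 CPM, inside the WT range.

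*Oat*, ornithine aminotransferase, makes glutamate semialdehyde and glutamate from ornithine and is perivenous in the normal lobule. Its RPFs were 607, 587 and 526 CPM in WT mice at day 4 and 552, 428 and 648 at day 10. B mice had 2696, 2651 and 4108 at day 4 and 6027, 6068 and 3245 at day 10. BM mice had less than any B mouse at day 4, with 2217, 1655 and 1951, and 5490, 7421 and 8793 at day 10, where the ranges of B and BM overlapped. Changes against WT were 2.44 ± 0.163 (3.1e-05) in B and 1.78 ± 0.112 (6.1e-07) in BM mice at day 4, and 3.22 ± 0.265 (0.00016) and 3.72 ± 0.282 (0.00017) at day 10. In M mice the level stayed between 485 and 617 CPM and no call was made.

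*Slc1a2* encodes GLT-1, a sodium-dependent glutamate transporter that supplies perivenous cells with glutamate. WT mice had 138, 114 and 109 RPF CPM at day 4 and 106, 71.4 and 126 at day 10. In B mice it was 214, 209 and 413 at day 4 and 1564, 1545 and 1122 at day 10, and in BM mice 419, 472 and 379 and then 1500, 1749 and 1651. The groups with β-catenin did not overlap with WT at either day, and at day 10 every B and BM mouse was above every B and BM mouse of day 4. The change was 1.20 ± 0.229 (0.0087) in B and 1.84 ± 0.114 (5.5e-07) in BM mice at day 4, and 3.78 ± 0.234 (4.5e-05) and 4.00 ± 0.260 (0.00012) at day 10. Its RNA rose further, to 4.75 ± 0.244 in BM mice at day 10 (8.8e-06), from a WT mean of 148 to a BM mean of 4010 CPM.

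*Slc1a4* encodes ASCT1, an exchanger of small neutral amino acids from the same transporter family. Its RPFs were 18.8, 13.8 and 18.3 CPM in WT mice at day 4 and 11.7, 13.1 and 11.2 at day 10. B mice had 43.6, 96.2 and 75.5 and then 64.9, 72.5 and 78.1, and BM mice 77.6, 80.7 and 81.0 at day 4. At day 10 the BM mice parted, with 71.3 in mouse 1 and 16.6 and 12.2 in mice 2 and 3, the last inside the WT range. The change was 2.06 ± 0.246 (0.00066) in B and 2.25 ± 0.114 (1.9e-07) in BM mice at day 4 and 2.57 ± 0.125 (2.9e-05) in B mice at day 10. For BM mice at day 10 it was 1.46 ± 0.610 (0.094), and without mouse 1 it was 0.26 with an adjusted p of 0.23, and no call was made when any WT mouse was left out (0.19 to 0.22). In M mice *Slc1a4* was below WT at both days, with 8.60, 8.58 and 8.27 CPM at day 4 (−0.97 ± 0.140, 0.00095) and 8.35, 10.8 and 5.77 at day 10 (−0.53 ± 0.217, 0.15). With all 24 mice in 1 fit the day 4 call was lost in RPFs (adjusted p = 0.15) and in RNA (0.19).

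**Figure D2:**
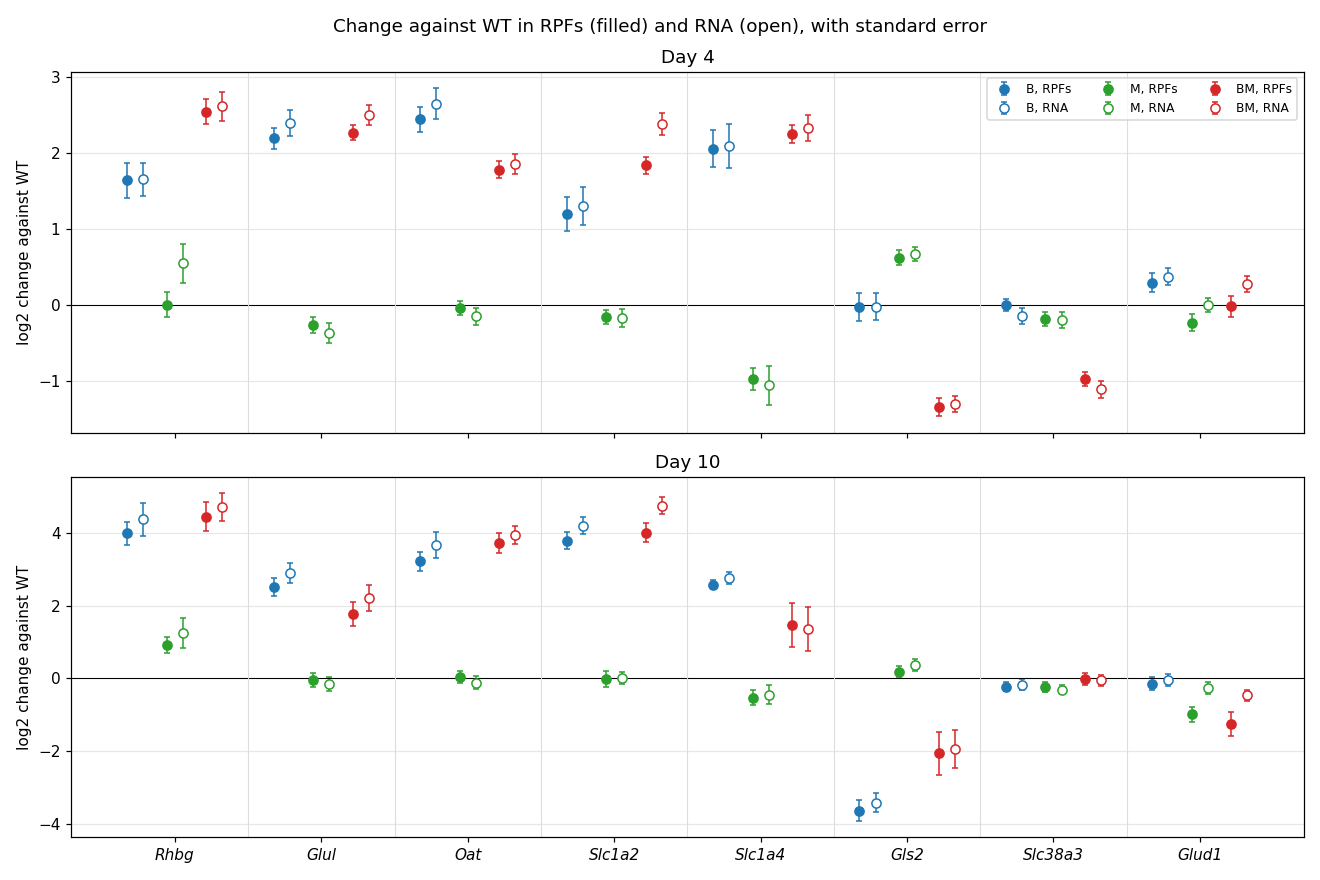
Log2 change against WT of the same day in RPFs (filled) and RNA (open) with the standard error of the edgeR fit, for B, M and BM mice at day 4 (top) and day 10 (bottom). *Rhbg*, *Glul*, *Oat*, *Slc1a2* and *Slc1a4* lie above 0 in B and BM mice at both days, *Gls2* lies below 0 in BM mice at both days and in B mice at day 10, and the RPF value of *Glud1* in M and BM mice at day 10 lies below its RNA value.

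*Gls2*, the liver-type glutaminase of periportal hepatocytes, fell in BM mice at both days and in B mice at day 10. WT mice had 231.5, 285 and 292 RPF CPM at day 4 and 379, 417 and 335 at day 10. B mice at day 4 had 346, 186 and 269, on both sides of WT, and the change was −0.03 ± 0.187 (0.96). At day 10 they had 24.1, 21.3 and 45.3, a change of −3.65 ± 0.283 (0.00013). In BM mice *Gls2* was lower at day 4, with 121, 92.1 and 100.2 CPM (−1.34 ± 0.117, 6.2e-06), and at day 10 it was 18.9 in mouse 1 and 117 and 136 in mice 2 and 3 (−2.07 ± 0.602, 0.030). Without mouse 1 that change was −1.59. M mice had 389.6, 381 and 448 at day 4, all above WT (0.62 ± 0.105, 0.0020), and 457.5, 473.5 and 350.2 at day 10, where the ranges overlapped (0.18 ± 0.148, 0.47). The day 4 call in M mice was lost with all 24 mice in 1 fit, in RPFs (0.59, adjusted p = 0.38) and in RNA (0.67, 0.27).

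*Slc38a3* encodes SNAT3, the system N transporter that carries glutamine across the hepatocyte membrane in either direction. It was 1310, 1249 and 1213 RPF CPM in WT mice at day 4 and 1311, 1249 and 1259 at day 10. In B mice the change was 0.0049 ± 0.0805 (0.98) at day 4 and −0.23 ± 0.122 (0.23) at day 10. BM mice at day 4 had 604, 683 and 603 (−0.97 ± 0.0865, 7.1e-06), below every other mouse of the series. At day 10 they had 1404, 1226 and 1156, around WT, with a change of −0.03 ± 0.165 (0.91). The transcript that carried its RPF counts held 29.9% of the gene's RNA counts, as the gene has 4 similar isoforms, and RNA summed over isoforms gave the same picture (−1.11 ± 0.113 in BM mice at day 4, 4.6e-06).

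*Glud1* encodes mitochondrial glutamate dehydrogenase, which releases ammonia from glutamate or, in reverse, takes up ammonia to make glutamate. Its RPFs were 725, 765 and 960.3 CPM in WT mice at day 4 and 1298, 1097 and 1156 at day 10. In RNA it rose slightly at day 4, by 0.37 ± 0.107 in B (0.063) and 0.28 ± 0.103 in BM mice (0.051), calls that were both lost without WT mouse 1 or 3 or either of mice 2 and 3 of the mutant group and with all 24 mice in 1 fit (0.13 and 0.11), and RPFs did not pass the test (0.29 ± 0.123, 0.19, and −0.02 ± 0.143, 0.93). At day 10 RPFs fell by 1.00 ± 0.211 in M mice (0.021) and by 1.25 ± 0.326 in BM mice (0.020), with 505, 463 and 817 CPM in M and 793, 342 and 369.6 in BM mice, all below WT. RNA changed by −0.27 ± 0.155 in M (0.33) and fell by 0.47 ± 0.148 in BM mice (0.034), which was lost without WT mouse 1 or BM mouse 2 or 3 (0.11 to 0.12). B mice at day 10, at 1268, 1179 and 803 CPM, overlapped with WT (−0.15 ± 0.170, 0.60).

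BM mice were set against M mice to see what β-catenin added to MYC, and against B mice to see what MYC added to β-catenin. Against M mice, the 5 risers were higher in BM mice and *Gls2* lower at both days. At day 4, 7 of the 8 genes were called in RPFs (38.2% of all genes) and 8 in RNA (30.5%), with *Slc38a3* lower by 0.80 ± 0.104 (0.00053) in RPFs and *Glud1* RNA higher by 0.27 ± 0.101 (0.068), a call lost without any 1 of the M mice or without BM mouse 2 or 3 (0.11 to 0.20) and with all 24 mice in 1 fit (0.16). At day 10, 6 were called in RPFs (32.7%) and 6 in RNA (32.9%). In RPFs at day 10 the *Slc1a4* call was lost without any 1 of the M mice (0.15 to 0.18) and the *Gls2* call without M mouse 1 or 2 or BM mouse 2 (0.11 to 0.13). Without BM mouse 1 the RPF difference in *Slc1a4* was 0.83 (0.037). Its RNA call was lost without any 1 of the M mice (0.14 to 0.19) or without BM mouse 1, where the difference was 0.58 (0.12). The largest of these RPF changes was that of *Slc1a2* at day 10, 4.01 ± 0.214 (0.00019). Against B mice at day 4, 5 were called in RPFs (44.7% of all genes) and the same 5 in RNA (34.8%). *Rhbg* (0.90 ± 0.206, 0.0071) and *Slc1a2* (0.64 ± 0.228, 0.051, lost without B mouse 1 or 2 or BM mouse 2 and by DESeq2, 0.17) were higher in BM mice, and *Oat* (−0.66 ± 0.174, 0.015), *Gls2* (−1.32 ± 0.195, 0.00061) and *Slc38a3* (−0.98 ± 0.0905, 3.8e-05) were lower. The difference in *Glul* was 0.08 ± 0.150 (0.72) and in *Slc1a4* 0.19 ± 0.215 (0.52). The *Glud1* RPFs were called lower in BM mice by DESeq2 (−0.31, 0.077), with the replicate block (−0.32, 0.046) and without BM mouse 2 (0.027) or B mouse 3 (0.098).

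At day 10 the calls of BM against B depended on single mice. With all mice, 1 of the 8 genes was called in RPFs, *Glud1* (−1.10 ± 0.346, 0.053), where 36.5% of all genes were called, and 3 in RNA (31.8%), *Gls2* (1.51 ± 0.579, 0.088), *Slc1a2* (0.59 ± 0.206, 0.068) and *Slc1a4* (−1.38 ± 0.511, 0.079). BM mouse 1 was among the B mice in *Slc1a4* and at or below them in *Gls2*, and mice 2 and 3 were away from them on the side of WT. Without mouse 1, 5 genes were called in RPFs, close to the 61% of all genes called there. In that fit *Slc1a4* was lower than in B mice by 2.28 on the log2 scale (adjusted p = 5e-05), *Glul* by 1.00 (0.0071), while *Gls2* was higher by 2.09 (0.00074) and *Oat* by 0.70 (0.042). The *Glud1* call in RPFs was lost without BM mouse 2 or 3 or B mouse 1 or 2 (adjusted p 0.15 to 0.17), DESeq2 on all mice called 3 genes (37.8% of all genes), and with all 24 mice in 1 fit 5 were called (56.2%). Each of the 3 RNA calls was lost without BM mouse 2 or 3 (0.19 to 0.24). Without single B mice, *Slc1a4* was lost for any of the 3 (0.16), *Gls2* for mouse 1 or 2 (0.24) and *Slc1a2* for mouse 1 or 3 (0.13 and 0.18). DESeq2 did not call *Slc1a4* (0.19) or *Gls2* (0.18) in RNA.

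**Figure D3:**
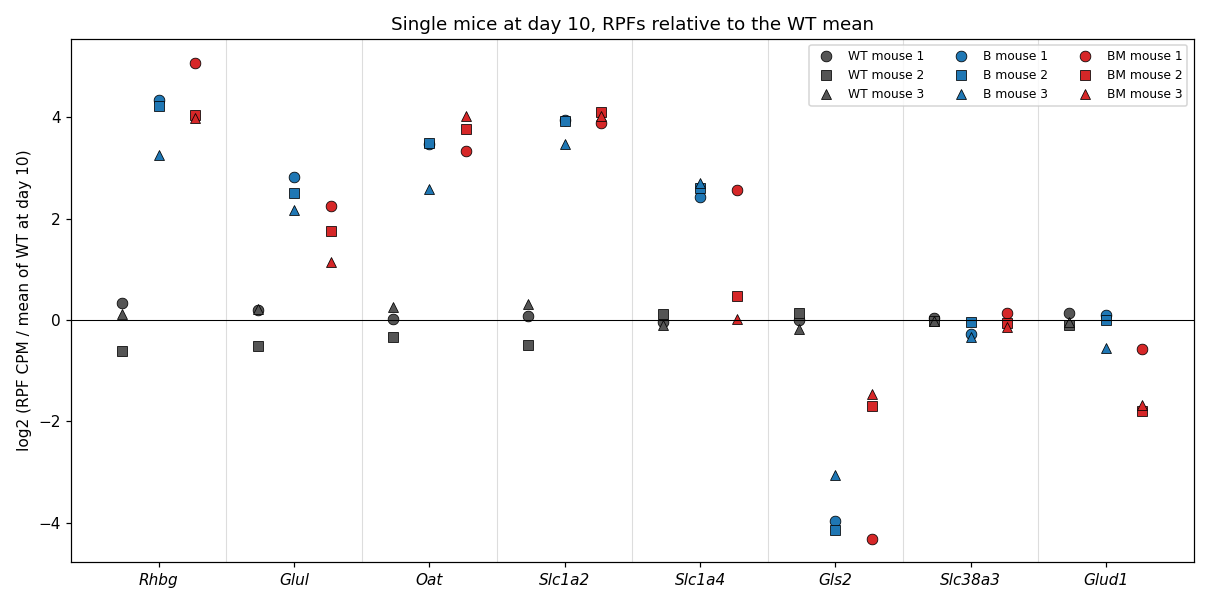
RPF level of each WT, B and BM mouse at day 10 as log2 of its ratio to the WT mean of that day, by gene. BM mouse 1 (red circle) lies with the B mice (blue) for *Slc1a4* and *Gls2*, and BM mice 2 and 3 lie nearer to 0, and for *Glud1* mouse 1 lies nearer to 0 than mice 2 and 3.

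Whether an effect differed between day 10 and day 4 was tested as a difference of changes. For B mice 3 genes were called in RPFs (17.2% of all genes) and the same 3 in RNA (9.31%). *Rhbg* (2.35 ± 0.444, 0.0052) and *Slc1a2* (2.59 ± 0.362, 0.00083) had a higher change at day 10 and *Gls2* (−3.62 ± 0.370, 7.3e-05) a lower one, while the difference was 0.32 ± 0.286 (0.53) for *Glul*, 0.78 ± 0.324 (0.14, and 0.094 by DESeq2) for *Oat* and 0.51 ± 0.316 (0.34) for *Slc1a4*. For BM mice 5 were called in RPFs (35.7%) and the same 5 in RNA (29.9%). *Oat* (1.95 ± 0.278, 0.00054), *Rhbg* (1.90 ± 0.438, 0.0079) and *Slc1a2* (2.17 ± 0.264, 0.00020) had a larger change at day 10, that of *Slc38a3* differed by 0.96 ± 0.164 (0.0015) and that of *Glud1* by −1.22 ± 0.387 (0.036). For *Glud1* the mean RPF level went from 793 to 501.5 CPM in BM mice and from 817 to 1184 in WT mice. The difference in *Glul* was −0.48 ± 0.349 (0.33) and in *Slc1a4* −0.77 ± 0.688 (0.43), and without BM mouse 1 both were called (−0.81, 0.024, and −2.01, 2.3e-06). For M mice 0 were called in RPFs by edgeR (1.18% of all genes), with 3 at an unadjusted p under 0.05 and 0 by DESeq2, and 0 in RNA (1.2%), with 0 and 0. Without M mouse 3 of day 10 *Glud1* was called in RPFs (−1.02, 0.0080). In WT mice, day 10 against day 4, *Gls2* (0.49 ± 0.121, 0.062) and *Glud1* (0.54 ± 0.131, 0.056) were higher in RPFs, 2 of 8 where 4.44% of all genes were called, and *Gls2* was the 1 gene called in RNA (0.57 ± 0.104, 0.017; 2.32%). With all 24 mice in 1 fit these 3 calls were lost (adjusted p 0.46 to 0.73). Both RPF calls were lost when either WT mouse 1 or 2 of day 4 or mouse 1 of day 10 was left out, that of *Gls2* also without mouse 3 of day 4 and that of *Glud1* without mouse 3 of day 10. With the replicate number as a block both missed the threshold (0.13 each), and *Rhbg* was called instead (−0.83, 0.040). *Rhbg* was also called by DESeq2 (−0.82, 0.025), without a filter (−0.82, 0.044) and without mouse 2 of day 4 (0.068) or mouse 1 of day 10 (0.080). *Slc1a4* was called without a filter (−0.51, 0.084) and without mouse 2 of day 4 (0.050) or of day 10 (0.094).

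A further contrast set the BM change against the B change added to the M change. At day 4, 6 of the 8 genes departed from the sum in RPFs (19.7% of all genes). *Slc1a4* (1.15 ± 0.309, 0.025), *Rhbg* (0.88 ± 0.303, 0.070) and *Slc1a2* (0.78 ± 0.285, 0.086) were above it, and *Gls2* (−1.96 ± 0.249, 0.00036), *Slc38a3* (−0.81 ± 0.126, 0.0012) and *Oat* (−0.64 ± 0.219, 0.067) below it. In RNA 4 were called (12.8%), *Slc1a4* and *Slc1a2* above the sum and *Gls2* and *Slc38a3* below, of which that of *Slc1a4* was lost without WT mouse 1 or 3 or M mouse 2 (0.11 to 0.15) and with all 24 mice in 1 fit (0.29). For *Gls2* the B change was near 0 and the M change upward, and the BM change was downward. The *Slc1a2* call was lost on leaving out any of 10 of the 12 mice and by DESeq2 (0.15). The *Oat* call was lost without WT mouse 1 or 3, B mouse 3, M mouse 2 or 3 or BM mouse 2 or 3 (0.10 to 0.15), and the *Rhbg* call without WT mouse 1 or 3, M mouse 1 or BM mouse 2 or 3 (0.11 to 0.20). The RPF count was 3 without WT mouse 1, WT mouse 3 or BM mouse 2, and 2 with all 24 mice in 1 fit (5.84% of all genes), *Gls2* and *Slc38a3*. The share of all genes called without those single mice is not given. At day 10, 0 were called in RPFs by edgeR (12.5%) and 0 in RNA (8.13%), with 0 and 2 at an unadjusted p under 0.05 and 0 and 0 by DESeq2, and without BM mouse 1 these counts were 4 and 3, where 41.9% and 25.4% of all genes were called.

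Translation efficiency (TE), the ratio of RPFs to RNA, was tested as the interaction of genotype and library type. Of the 8 genes, 0 were called by edgeR in B, M and BM mice at day 4, where 0.0488%, 0.971% and 2.23% of all genes were called, and 0 at day 10, where 0.0564%, 0% and 0.259% were. DESeq2 also called 0 in each, and at an unadjusted p under 0.05 there were 0, 0 and 1 at day 4 and 0, 1 and 1 at day 10, with 334 such genes of all genes in M mice at day 10. Both libraries of a mouse come from 1 lysate, and with the mouse as a block 1 gene was called in BM mice at day 4 (6.17% of all genes) and 2 at day 10 (5.21%), while 0 were called in B and M mice at day 4 (0.274% and 2.65%) and day 10 (2.6% and 0.325%). *Slc1a2* was the gene called at both days. Its log2 TE was −0.51, −0.29 and −0.53 in WT mice at day 4 and −0.91, −1.12 and −1.01 in BM mice, and at day 10 it was −0.49, −0.60 and −0.57 in WT and −1.30, −1.27 and −1.31 in BM mice. The groups did not overlap at either day. TE was lower by 0.55 ± 0.199 (adjusted p = 0.29) at day 4 without the block, and with it the change was −0.55 ± 0.0951 (0.00042). At day 10 it was −0.78 ± 0.331 (0.47) without and −0.77 ± 0.143 (0.025) with the block. The transcript that carried the *Slc1a2* RPF counts is 1 of 4 isoforms and held 79.9% of its RNA counts (68.1% to 83.7% by library), while RNA was summed over isoforms. With the RNA of that transcript alone and no block, the TE change was −0.71 (0.11) at day 4 and −1.01 (0.39) at day 10. B mice at day 10, at −0.73, −1.02 and −1.08, were also below WT (−0.41 ± 0.130, 0.13 with the block).

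*Glud1* was the second gene called in BM mice at day 10. Its log2 TE lay between −0.27 and −0.23 in the WT mice of that day, and in BM mice it was −0.41 in mouse 1 and −1.61 and −1.37 in mice 2 and 3. The change was −0.80 ± 0.375 (adjusted p = 0.50) without and −0.91 ± 0.251 (0.088) with the mouse as a block, and without BM mouse 1 it was −1.26 (0.0008) in the fit without the block. M mice at day 10 had −1.32, −1.47 and −0.24, so that mouse 3 lay with WT, and the change was −0.73 ± 0.276 (1.00) without and −0.77 ± 0.223 (0.33) with the block. Without M mouse 3 it was −1.15 (0.0031). The WT mice of day 4 had −0.85, −0.82 and −0.38, and a difference in TE between the days was not tested. The other 6 genes had TE changes between −0.55 and 0.15 in the 6 comparisons, and none was called with or without the block. The TE of *Glul* also lay below every WT mouse of its day in BM mice at both days and in B mice at day 10. That of *Gls2* did so in B mice at day 10, and that of *Slc38a3* lay above WT in B mice at day 4.

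**Figure D4:**
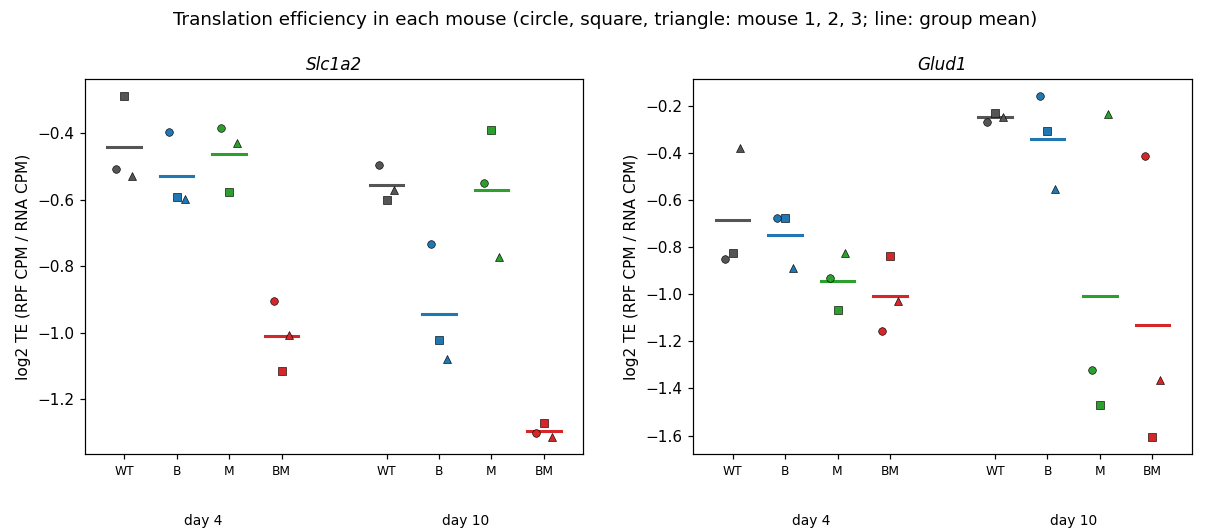
Log2 TE (RPF CPM divided by RNA CPM, TMM-scaled) of *Slc1a2* and *Glud1* in each mouse by genotype and day, with lines at the group means. *Slc1a2* lies lower in every BM mouse than in every WT mouse of its day, and for *Glud1* at day 10 mouse 3 of M and mouse 1 of BM lie apart from the others of their groups.

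The wider glutamine and glutamate genes did not share one direction, and their counts in RPFs are set beside the share of all genes called, which was 12.5%, 33.3% and 50.9% in B, M and BM mice at day 4 and 25.2%, 19.4% and 46.8% at day 10. Of the tested enzymes of glutamate and proline metabolism, 2 of 16 rose and 3 fell in B mice at day 4 and 4 rose and 3 fell at day 10. In M mice 9 of 16 rose and 0 fell at day 4 and 3 rose and 1 fell at day 10. In BM mice 7 rose and 4 fell of 17 at day 4 and 8 and 4 at day 10, with median changes of 0.16 and 0.25 beside 0.00 and 0.03 over all genes. Of 10 tested enzymes that use the amide nitrogen of glutamine, such as those of nucleotide and asparagine synthesis, 5 rose and 1 fell in M mice at day 4 (median 0.51), and the counts were the same in BM mice (median 0.59). Those 6 of 10 lay near the share of all genes called in BM mice and above that in M mice. At day 10, 6 rose and 1 fell in BM mice (median 0.74) and 3 rose and 0 fell in M mice (median 0.37). In B mice 1 rose and 2 fell at day 4 (median −0.12) and 2 rose and 1 fell at day 10 (median 0.0001). Of the glutamine and glutamate transporters tested, 4 of 14 rose and 7 fell in BM mice at day 4, and 8 rose and 2 fell at day 10. In B mice 3 rose and 1 fell at day 4 and 3 rose and 3 fell at day 10, and in M mice 5 rose and 1 fell at day 4 and 1 rose and 2 fell at day 10. Of the 7 urea cycle genes, 6 fell and 0 rose in BM mice at day 4 (median −0.85), and 5 fell and 1 rose in B mice at day 10 (median −0.42). In BM mice at day 10, 4 rose and 1 fell (median 0.70). In B mice at day 4, 0 rose and 1 fell, and in M mice 2 rose and 0 fell at day 4 and 0 moved at day 10.

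A call with the same sign in B and BM mice at both days was made for 2.12% of the 10878 genes tested in all 4 comparisons, and for 5 of the 8 genes. The 8 genes and the lists were chosen with earlier results of these data known, so these counts are a description and not a test. It was made for 2 of 16 enzymes of glutamate and proline metabolism, 0 of 10 users of the amide nitrogen, 2 of 14 transporters and 0 of 7 urea cycle genes, and these 4 genes rose. Of the 12 β-catenin targets 6 rose in all 4 comparisons, and of the 9 hepatocyte markers 3 fell in all 4. *Prodh*, proline dehydrogenase, and *Aldh4a1*, which takes the next step from proline to glutamate, rose in RPFs by 1.34 ± 0.167 and 0.50 ± 0.101 in B mice at day 4 and by 1.71 ± 0.216 and 0.53 ± 0.183 in BM mice at day 10. The adjusted p (edgeR) in BM mice at day 10 was 0.0014 for *Prodh* and 0.053 for *Aldh4a1*. Their RNA changes there were 1.63 (0.00078) and 0.31 (0.17), the latter not called. *Prodh* and *Aldh4a1* also rose in RPFs in M mice at day 4, by 0.43 ± 0.0961 (0.0093) and 0.37 ± 0.0718 (0.0044), beside 1.06 ± 0.114 and 0.33 ± 0.0791 in BM mice of that day. *Slc1a5* encodes ASCT2, a glutamine exchanger of the family of *Slc1a2* and *Slc1a4*, and it rose from a low level, with 1.43 to 1.57 RPF CPM in WT, 7.58 to 9.26 in B and 19.0 to 34.3 in BM mice at day 10 (4.19 ± 0.293, adjusted p = 0.00012, in BM mice). At day 4 its RPFs were called in B mice (1.31 ± 0.349, 0.044) and its RNA was not (0.43, 0.57). Its TE change in BM mice at day 10 was 1.66 ± 0.434 (0.26), and with the mouse as a block it was 1.63 ± 0.433 (0.082), a call. *Slc7a5* encodes LAT1, an exchanger of large neutral amino acids for glutamine, and its RPFs rose by 0.93 ± 0.253 in B and 1.06 ± 0.224 in BM mice at day 4 and by 1.17 ± 0.251 and 1.24 ± 0.343 at day 10. Its RNA changes were −0.20, −0.40, 0.09 and 0.41 in the same order, and none was called. The TE of *Slc7a5* rose by 1.45 ± 0.319 in BM mice at day 4 (0.027), and with the mouse as a block it also rose by 1.07 ± 0.271 in B mice at day 10 (0.036, and 0.71 without the block). The TE change was 1.13 in B mice at day 4 (1.00, and 0.24 with the block) and 0.81 in BM mice at day 10 (0.57 and 0.33), and neither was called. All of this was seen at 1.64 to 6.81 RPF CPM in the WT, B and BM mice.

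Over the 24 mice, the log2 RPF levels of *Rhbg*, *Glul*, *Oat* and *Slc1a2* were correlated with each other at Pearson's r of 0.788 to 0.949, and *Slc1a4* was closest to *Glul* (0.929). *Gls2* was opposite to all 5 (−0.713 to −0.874), and *Slc38a3* and *Glud1* had r between −0.31 and 0.366 with the other members. These mice span 8 groups, so r describes the pattern over genotypes and days. Among 12000 genes, those whose RPF level was most like that of *Glul* were *Axin2* (0.982), *Gulo* (0.976), *Lect2* (0.968), *Lgr5* (0.968) and *Kif26b* (0.961), and those most like *Gls2* were *Hal* (0.978), *Cyp8b1* (0.958), *Amdhd1* (0.957), *Otc* (0.95) and *Sfxn1* (0.95).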

How the data were processed

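Ribosome-protected fragments and cytoplasmic RNA from the liver of 24 mice were analysed as 48 libraries, grouped by the genotype and day in the labels. The authors trimmed reads with Cutadapt 1.18, removed duplicates by molecular identifier and discarded rRNA and tRNA reads. They aligned reads to the most abundant transcript of each gene (GENCODE vM27, GRCm39), kept aligned reads of 30 to 38 nt and deposited raw RPF counts per coding sequence without the first 20 and last 10 codons. For RNA the authors deposited expected counts and TPM per isoform from RSEM 1.3.3 with Bowtie2 2.3.5.1, and the submitters' notes also name SAMtools 1.9, R 4.3.1 and DESeq2. Expected counts were summed per gene and rounded here, and a missing RPF line was taken as 0, which touched none of the 8 genes. Counting reads on 1 transcript leaves the RPFs of other isoforms out, and reads of near-identical paralogs can be shared.

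Each comparison was fitted with edgeR 4.0.16 (R 4.3.3, limma 3.58.1) by the quasi-likelihood test on the libraries of its groups, with TMM scaling, filterByExpr (minimum count 10, minimum total 15) and Benjamini-Hochberg adjustment over all genes tested at 0.1. Values after ± are standard errors for changes and SD for levels. DESeq2 1.42.0, its size factors, no filter, a replicate block, all 24 mice in 1 fit, the RNA of the RPF transcript alone and leaving out each mouse were the alternatives. The RPF and RNA libraries of a mouse come from 1 animal and deviated together from their group means (r of 0.156 to 0.605, all 24 over 0.1), so TE was also fitted with the mouse as a block. Positions and promoters were read from GRCm39 with GENCODE vM39. The scripts were tested on simulated data.

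The 8 genes, gene lists and markers were chosen with earlier results of these data known. Besides the 8 genes, the text names those of the pathway lists called in RPFs with the same sign in B and BM mice at both days, at most 3 each of the urea cycle and β-catenin target lists by the same rule, and the 5 genes most correlated with *Glul* and with *Gls2* (log2 CPM, prior count 2). *Tspan8*, *Cd79a* and *Cd3e* were named after their values were seen. FPKM and isoform percentages were not used.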

Additional observations from a re-analysis of the deposited data

Results flagged for a closer look

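Of the 8 genes, these had effects that differed between the days, or a BM change unlike the B change added to the M change, by edgeR's test of the difference itself (adjusted p below 0.1). Values are differences of log2 changes.

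In B mice, the change at day 10 minus that at day 4 was 2.35 for *Rhbg*, 2.59 for *Slc1a2* and −3.62 for *Gls2* in RPFs, and 2.71, 2.88 and −3.41 in RNA. In BM mice it was 1.95 for *Oat*, 1.90 for *Rhbg*, 2.17 for *Slc1a2*, 0.96 for *Slc38a3* and −1.22 for *Glud1* in RPFs. In RNA the same genes had 2.08, 2.09, 2.37, 1.04 and −0.75.

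At day 4, the BM change minus the added B and M changes in RPFs was −0.64 for *Oat*, 0.88 for *Rhbg*, 0.78 for *Slc1a2*, 1.15 for *Slc1a4*, −1.96 for *Gls2* and −0.81 for *Slc38a3*. In RNA it was 1.27 for *Slc1a2*, 1.32 for *Slc1a4*, −1.93 for *Gls2* and −0.74 for *Slc38a3*. With all 24 mice in 1 fit the RPF calls of *Oat*, *Rhbg*, *Slc1a2* and *Slc1a4* were lost (adjusted p 0.18 to 0.33, edgeR). The RNA call of *Slc1a4* was lost there too (0.29). Leaving out single mice also ended the RPF calls of *Oat*, *Rhbg* and *Slc1a2*. Groups of 3 mice were not searched for single outlying values.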

How the results depend on the processing

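Of 1695 values of single genes under settings that kept every mouse, 1638 stayed on the same side of the threshold, 23 lost a call and 34 gained one, and of 2304 values with a mouse left out, 2169 stayed, 92 lost a call and 43 gained one. In 0 of these did a called change turn its sign. With all 24 mice in 1 fit, the number of the 8 genes called in RPFs went from 2 to 0 for M against WT at day 4, from 1 to 5 for BM against B at day 10, from 6 to 2 and from 0 to 2 for BM against the sum of effects at day 4 and day 10, and from 2 to 0 for WT between days. In RNA it went from 3 to 0 for M against WT at day 4, from 3 to 5 for BM against B at day 10 and from 1 to 0 for WT between days. DESeq2 called 3 genes in RPFs and 1 in RNA for BM against B at day 10. In RPFs for BM against B at day 10, 36.5% of all genes were called, 56.2% with all 24 mice in 1 fit and 37.8% by DESeq2. For BM against the sum of effects at day 4 the share went from 19.7% to 5.84% with all 24 mice in 1 fit. Shares for the other counts of this section are not given. Without a filter on low counts, 4 were called for WT between days in RPFs and 5 for the B effect between days in RNA. The causes were not tested.

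Mice with the same number in different groups share only a number (RPFs, r of −0.177 to 0.216, 10 of 84 over 0.1). With the replicate block, 3 genes were called in RPFs for BM against B at day 10 and 1 for WT between days, which was *Rhbg* and neither *Gls2* nor *Glud1*, and *Slc1a4* in RPFs of BM against WT at day 10 had an adjusted p of 0.13. In TE the block is the mouse, and it gave 1 call at day 4 and 2 at day 10 in BM mice. Other counts with the block stayed within 1.5 times.

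Leaving out 1 mouse gave 1 to 3 calls for M against WT at day 10 in RPFs and 0 to 1 in RNA, 0 to 5 for BM against B at day 10 in RPFs and in RNA, 0 to 1 for the M effect between days in RPFs, 3 to 5 at day 4 and 0 to 4 at day 10 for BM against the sum in RPFs, 0 to 3 at day 10 in RNA, 0 to 3 for WT between days in RPFs, and 0 to 1 for TE in M and in BM mice at day 10. *Rhbg* rests on as few as 5 RNA counts in a WT library.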
